A study of Mus musculus with 8 samples.

Results

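Cytosolic ribosomal protein genes were read in the epididymal fat of 4 mouse lines. Their probe sets were those whose annotated gene symbol was an Rpl, Rps or Rplp name followed by a number, which leaves out the ribosomal protein kinases and the mitochondrial ribosome. The rule found 55 probe sets of 44 genes among 13179 probe sets, of which those with 1 symbol named 6137 genes. Chip A carried 38 of them (35 genes) among its 6584 probe sets, and chip B carried 17 (13 genes) among its 6595. Of the 44 genes, 14 encode proteins of the small subunit and 30 carry names of the large subunit. Another 24 probe sets listed several symbols, 1 of which followed the rule, and were not counted as members.

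Transcript levels were measured on a pair of Affymetrix arrays, chip A and chip B, that carry different probe sets. DU6 mice have been bred over many generations for a heavy body, and DU6i was inbred from DU6. DUKs mice were kept without such selection, and DBA is a classical inbred strain. The labels give the names of the lines, and the rest of this description is background. Each line was 1 pool of fat from 20 males aged 42 days, hybridised to 1 array of each chip, so that there were 8 arrays and no replicate of a line. DU6 was compared with DUKs and DU6i with DBA, as the series title pairs them. DU6 with DU6i and DUKs with DBA were the comparisons within a side. A pair of pools gives a ratio and no p-value. In such pools fewer cells of a type and less RNA per cell cannot be told apart.

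Each cytosolic ribosome joins a small subunit, which reads the mRNA, to a large subunit, which links the amino acids. Its proteins are needed in nearly equal numbers, and their mRNAs are among the most abundant in any growing or secreting cell. Most of these mRNAs begin with a run of C and T bases, the terminal oligopyrimidine tract, through which the mTOR pathway and Larp1 control their translation. The genes have many processed pseudogenes, and several have a paralogue used mainly in the testis, such as Rpl39l beside Rpl39.

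Start regions of 9 member genes are shown as examples. They were chosen after the values were seen and by no fixed rule. Some members that departed far from the common pattern described afterwards, such as Rpl13a and Rpl22l1, are not shown. Each line gives 30 bases before and 30 bases after the RefSeq start of the gene in GRCm38.p6, read on the gene's strand, and the capitals mark the longest run of C and T.
Rpl41 (chr10:128549139-128549198, minus strand): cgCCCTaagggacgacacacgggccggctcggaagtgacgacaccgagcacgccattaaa
Rps26 (chr10:128626477-128626536, minus strand): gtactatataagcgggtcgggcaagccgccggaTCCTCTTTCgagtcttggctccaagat
Rpl12 (chr2:32961682-32961741, plus strand): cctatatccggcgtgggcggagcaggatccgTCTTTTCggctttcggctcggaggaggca
Rpl39 (chrX:37085193-37085252, minus strand): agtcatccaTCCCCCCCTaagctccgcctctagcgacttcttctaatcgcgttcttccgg
Rpl39l (chr16:10170198-10170257, plus strand): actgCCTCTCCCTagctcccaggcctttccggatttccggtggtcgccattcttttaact
Rplp0 (chr5:115559437-115559496, plus strand): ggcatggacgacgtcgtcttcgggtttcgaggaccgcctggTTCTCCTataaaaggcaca
Rplp2 (chr7:141447621-141447680, plus strand): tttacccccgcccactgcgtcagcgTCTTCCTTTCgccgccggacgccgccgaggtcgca
Rps18 (chr17:33955636-33955695, minus strand): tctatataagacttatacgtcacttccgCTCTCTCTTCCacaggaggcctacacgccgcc
Rpl7a (chr2:26910777-26910836, plus strand): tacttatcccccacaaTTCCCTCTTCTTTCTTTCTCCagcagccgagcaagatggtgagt

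RefSeq promoters were found for 35 of the 44 genes, 43 promoters in all, among 32851 promoters of 27025 genes. A run of at least 8 C or T bases within 50 bases of the start was present in 33 of the 43 (76.7%), against 35.7% of all promoters. The letters TTCCGG, the core bound by ETS factors, stood on either strand of the 300-base promoters in 17 of the 43 (39.5%) and in 14.9% of all. AANATGGC, the core bound by Yy1, stood on either strand in 11 (25.6%) and in 6.05% of all. TATAAA on the gene's strand within 50 bases of the start was found in 3 (6.98%) and in 3.40% of all. No test was made of these shares. Rpl7a had a run of 21 bases in the window and Rps18 one of 11, while the window of Rpl41 held a run of 4 and that of Rps26 one of 9. Within 50 bases of the start the longest run of Rpl41 was 10. These matches describe letters near annotated starts and no measured binding.

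Ribosomal protein mRNAs were among the brightest signals of the fat in every line. On chip A 27 of the 38 probe sets lay above the floor on all 4 arrays, with a median mean signal of 20034 and a range of 2589 to 33427. On chip B 14 of the 17 did, with a median of 40793 and a range of 25081 to 56821. The floor, below which a signal was not read, was the 95th percentile of the sizes of the negative signals, 1023 on chip A and 2258 on chip B. All 14 such probe sets on chip B and 24 of those on chip A belonged to the brightest 5% of their chip. That chips and probe sets differ in brightness says nothing of which gene is made more, so levels were compared only within a probe set.

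Rps29, a small zinc-binding protein of the small subunit, was the brightest member of chip A with 27243 in DU6, 34818 in DU6i, 38990.4 in DUKs and 32657 in DBA. In DU6 and in DBA no chip A probe set was brighter. The next members by mean signal were Rpl23, Rps18, Rps28 and Rpl19. On chip B the brightest was Rpl37a, a zinc-binding protein of the large subunit, with 68065 in DU6, 42321 in DU6i, 77467 in DUKs and 39432 in DBA. Rps12, a small-subunit protein, had 64106 in DU6, 40489 in DU6i, 68609.7 in DUKs and 36678 in DBA. Rps3, which lies at the mRNA entry of the small subunit, had 54772 in DU6, 40759.6 in DU6i, 60410.4 in DUKs and 35503 in DBA on the same chip. The 3 chip B genes were higher in DU6 and DUKs than in DU6i and DBA. The brightest of 25 bins of other chip B probe sets leaned the same way. Its median log2 ratio was 0.62 in DU6 against DU6i and 0.78 in DUKs against DBA. The share of other probe sets split so was not counted.

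The members that were not read were mostly of another kind of probe set. Names ending in f mark, in the maker's naming, probe sets whose probes match several members of a family. Of the 23 such members on chip A 22 were above the floor on all 4 arrays, and of the 14 on chip B 13 were. None of the 5 members with plain names on chip A, and neither of the 2 on chip B, was above the floor on any array. A family probe set may also read processed copies of its gene, so each value stands for a gene and its near-identical copies together. On chip A 7 probe sets never passed the floor, those of Rps7, Rps4l, Rps27l, Rpl27, Rpl10a, Rpl4 and Rpl10. Rpl7 and Rpl32 on chip B did not pass it either. Rpl7 and Rpl10a were read through another probe set, with 13388 in DU6, 15678 in DU6i, 15019 in DUKs and 16337 in DBA for Rpl7 on chip A.

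**Figure D1:**
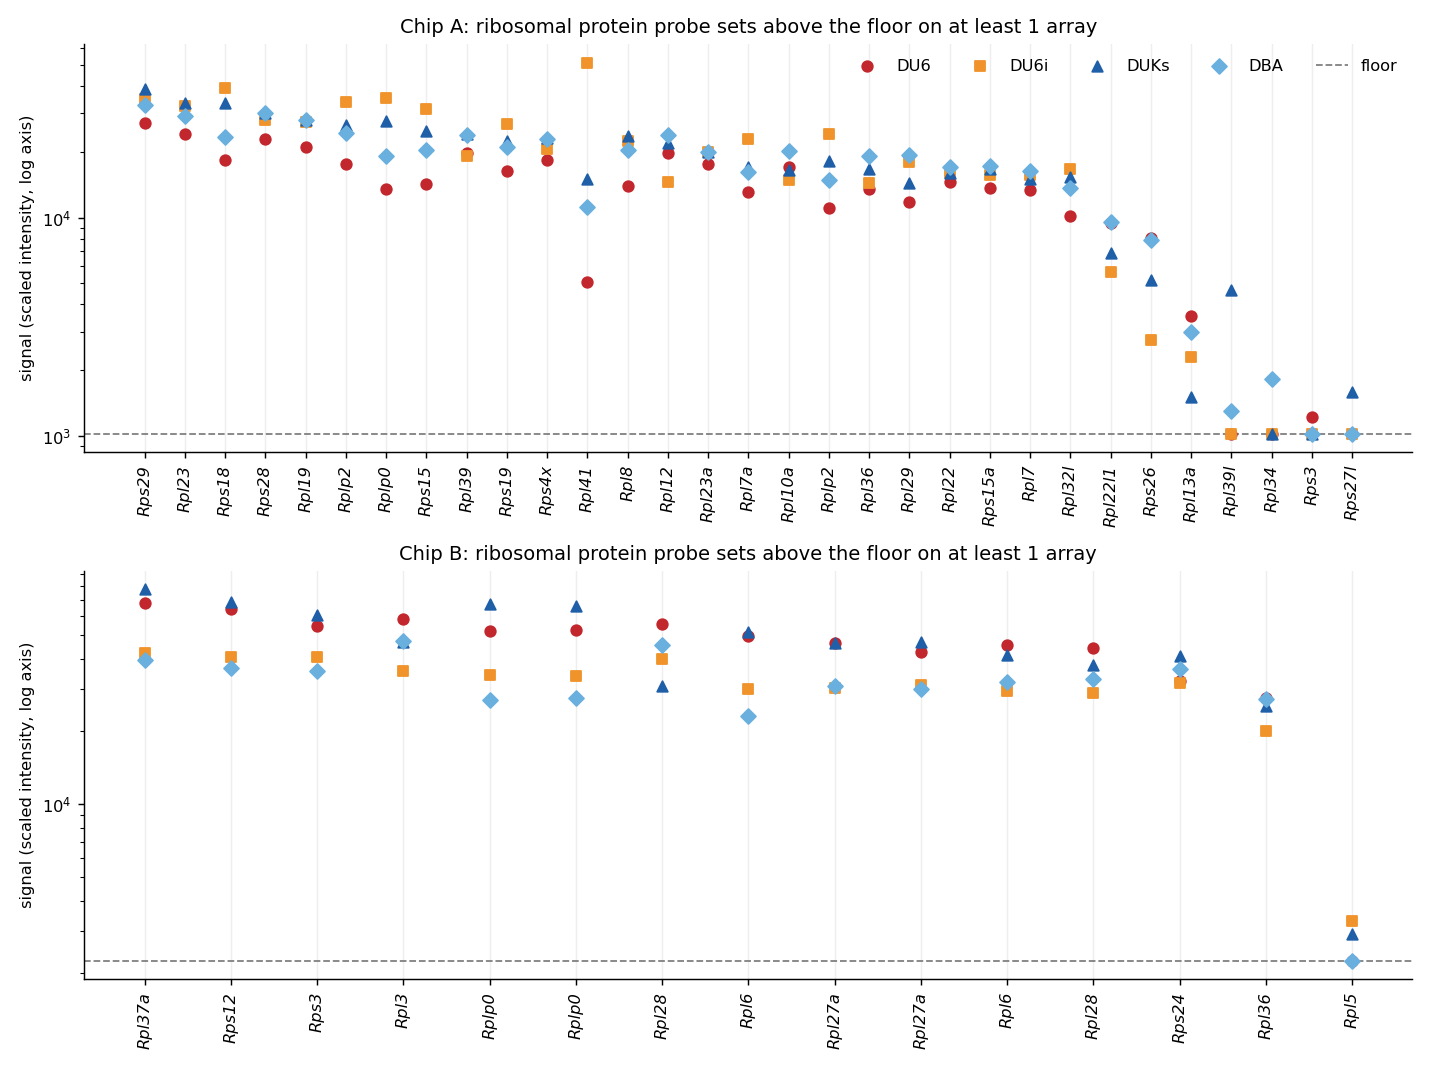
Signal (scaled intensity, log axis) of each ribosomal protein probe set that passed the floor on 1 or more arrays, in the 4 lines, sorted by mean signal. On chip A the DU6 point is the lowest of the 4 for 21 of 27 probe sets read on all arrays. On chip B the highest point belongs to DU6 or DUKs for all 14. Shares among other probe sets were not counted.

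The lines did not keep the same order on the chips. On chip A the median signal of the 27 probe sets was 14301 in DU6, 20609.6 in DU6i, 20004 in DUKs and 19873 in DBA. DU6 was lowest for 21 of the 27, DU6i for 5 and DUKs for 1. The highest signal was in DU6i for 10, in DBA for 10, in DUKs for 5 and in DU6 for 2. On chip B the median of the 14 probe sets was 50840.2 in DU6, 32873 in DU6i, 46875 in DUKs and 32503 in DBA. DU6 was highest for 6 of these and DUKs for 8, while the lowest was DBA for 7, DU6i for 6 and DUKs for 1. Among these members DU6 was thus mostly the lowest line on chip A and never the lowest on chip B. The brightest of 25 bins of other chip A probe sets was also lower in DU6. Its median log2 ratio was -0.58 against DUKs and -0.89 against DU6i. The share of other probe sets lowest or highest in each line was not counted.

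The summed signal followed the brightness of the arrays themselves. On chip A the 27 probe sets summed to 409852 in DU6, 606669 in DU6i, 553350.0 in DUKs and 525503 in DBA. The 99th percentile of all chip A signals stood in the same order, at 18810 in DU6, 34793 in DU6i, 27552 in DUKs and 23450.1 in DBA. On chip B the 14 probe sets summed to 694376 in DU6, 469075 in DU6i, 707794 in DUKs and 471158 in DBA, and the 99th percentile was 49489, 34692, 52203 and 33622 in the same lines. The members' order matched the percentiles' order on chip A, and on chip B it did apart from DU6i and DBA, whose sums differed little. The authors scaled each array to one overall level, which does not fix how bright the brightest probe sets are. The part of this in the members' ratios was not tested. It is the reason each ratio is set beside the 100 other probe sets of the chip nearest in mean log2 signal.

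In DU6 against DUKs the chip A members were lower, with a median log2 ratio of -0.39 over 30 measured probe sets, 25 of them below 0. The quartiles were -0.63 and -0.17, and all other measured probe sets of the chip had a median of 0.07. A probe set counts as measured when at least 1 of the pair's arrays is above the floor. Equally bright probe sets had a median of -0.19, and the members' median difference from them was -0.01, with 16 below and 14 above. Under quantile normalization the members' median was -0.04. On chip B the median was -0.10 over 15 probe sets, 9 of them below 0, against -0.09 for equally bright ones, and 0.01 under quantile normalization. A single log2 ratio carried a technical SD of 0.44, taken from the gap between probe sets of 1 gene in 387 genes with several. These probe sets read the same pools and, within a chip, the same arrays. The SD thus measures disagreement between probe sets and holds no variation between pools of a line.

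On chip A 1 member was at least 2-fold higher in DU6 than in DUKs and 3 were lower, against 3.31% and 5.78% of all measured probe sets of that chip. None of the 15 on chip B reached 2-fold, where 4.99% of all were higher and 7.24% lower. The higher one was Rpl13a, a large-subunit protein that can leave the ribosome to silence inflammatory mRNAs. Rpl39l, Rpl41 and Rplp0 were the lower ones. Each of these is described with its signals further on.

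In DU6i against DBA the chip A members had a median log2 ratio of -0.06 over 29 probe sets, 16 of them below 0, and 0.05 when arrays were rescaled to one median. Equally bright probe sets had 0.20, and 22 of the 29 members lay below their own neighbours, with a median difference of -0.32. The technical SD of a single ratio was 0.34 here (383 genes). This difference kept its size, between -0.39 and -0.30, under every alternative tried. On chip B the median was 0.05 over 15 probe sets and the median difference from equally bright ones was -0.07, with 9 below. Rpl41 alone was 2-fold higher on chip A and Rps26 alone lower, against 4.31% and 6.85% of all. None reached 2-fold on chip B, against 5.58% higher and 6.4% lower of all.

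By role, 13 of 15 large-subunit probe sets on chip A lay below their neighbours in DU6i against DBA (median difference -0.33). The small-subunit ones had 6 of 8 below (-0.45). The stalk probe sets had 1 of 3 below and a median difference of 0.32. No test sets these groups apart.

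In DU6 against DU6i the chips gave opposite signs. On chip A the median log2 ratio was -0.32 over 28 probe sets, 21 of them below 0, and became 0.16 under quantile normalization. On chip B it was 0.61 over 15, with 14 above 0, and 0.12 under quantile normalization. Equally bright probe sets had -0.49 on chip A and 0.49 on chip B. The median differences from them were 0.18 on chip A, with 18 of 28 above, and 0.07 on chip B, with 10 of 15 above. The technical SD was 0.47. On chip A 1 member, Rps26, was 2-fold higher and 5 were lower, against 4.27% and 4.99% of all. The 5 were Rpl41, Rplp0, Rps15, Rplp2 and Rps18. On chip B none reached 2-fold, against 5.71% higher and 6.89% lower of all.

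In DUKs against DBA the chip A median was 0.02 over 30 probe sets, 13 of them below 0, and -0.12 under quantile normalization. Equally bright probe sets had 0.14, and 20 of the 30 members lay below them (median difference -0.09). Rpl39l was 2-fold higher and none lower, against 5.15% and 4.29% of all. On chip B the median was 0.58 over 15 probe sets, with 12 above 0, and 0.08 under quantile normalization. Equally bright probe sets had 0.60, and the median difference from them was 0.00. Both chip B probe sets of Rplp0 and 1 of Rpl6, 3 in all, were 2-fold higher and none lower, against 7.51% and 7.03% of all. The technical SD was 0.40.

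**Figure D2:**
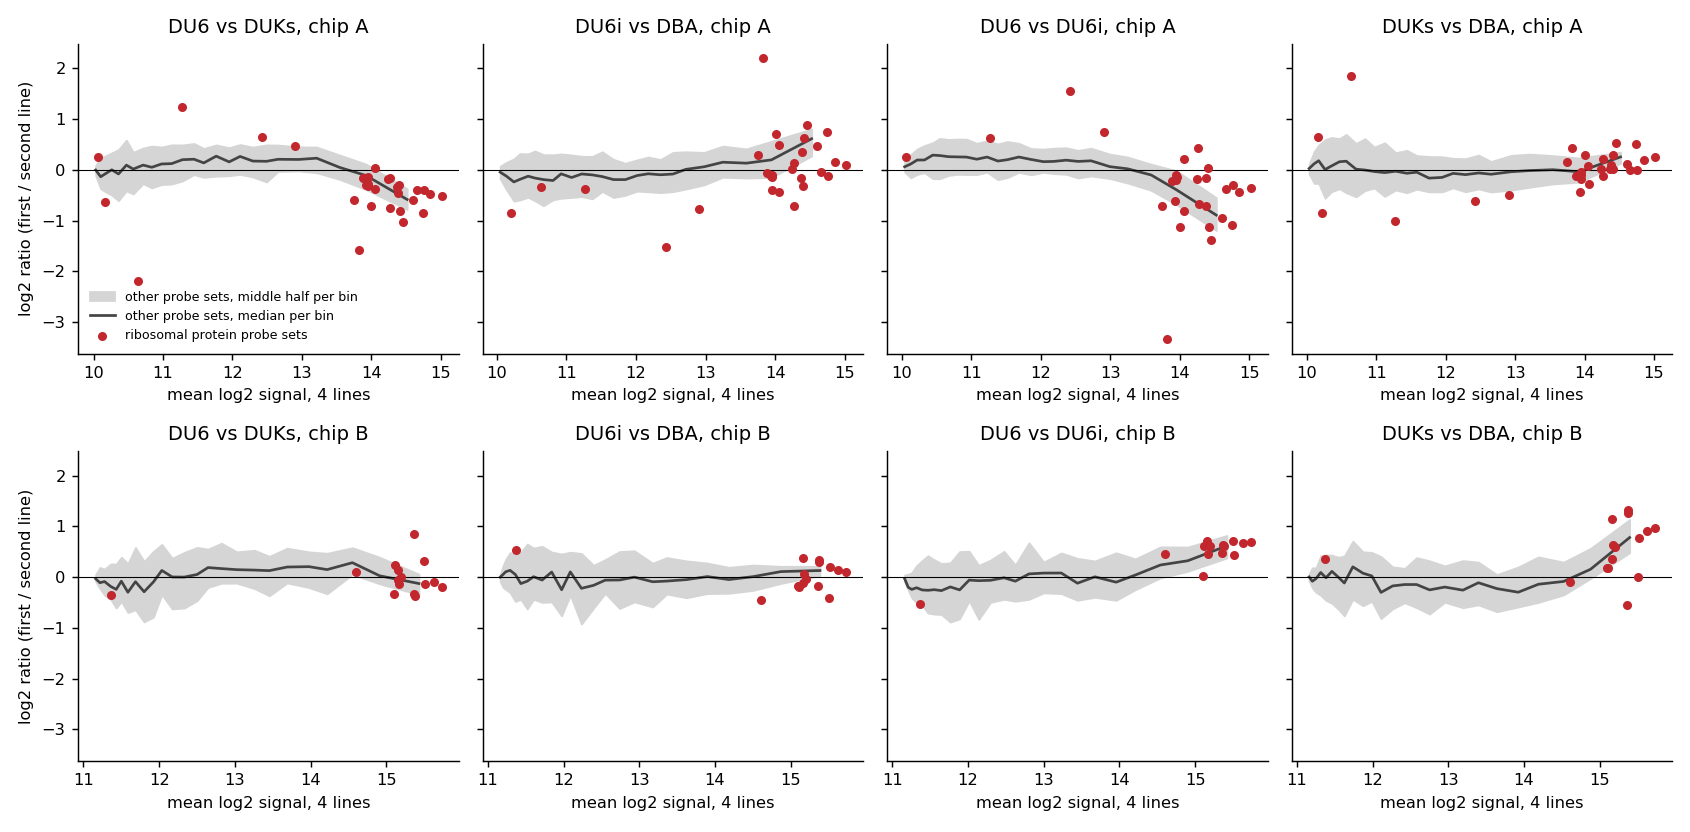
Log2 ratio (first line over second) against mean log2 signal over the 4 lines, for ribosomal protein probe sets (red points) and all others (line: median of 25 bins of equal number; band: middle part between the quartiles). At the bright end of chip A both bend below 0 in DU6 vs DUKs and DU6 vs DU6i, and at the bright end of chip B both bend above 0 in DU6 vs DU6i and DUKs vs DBA.

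**Figure D3:**
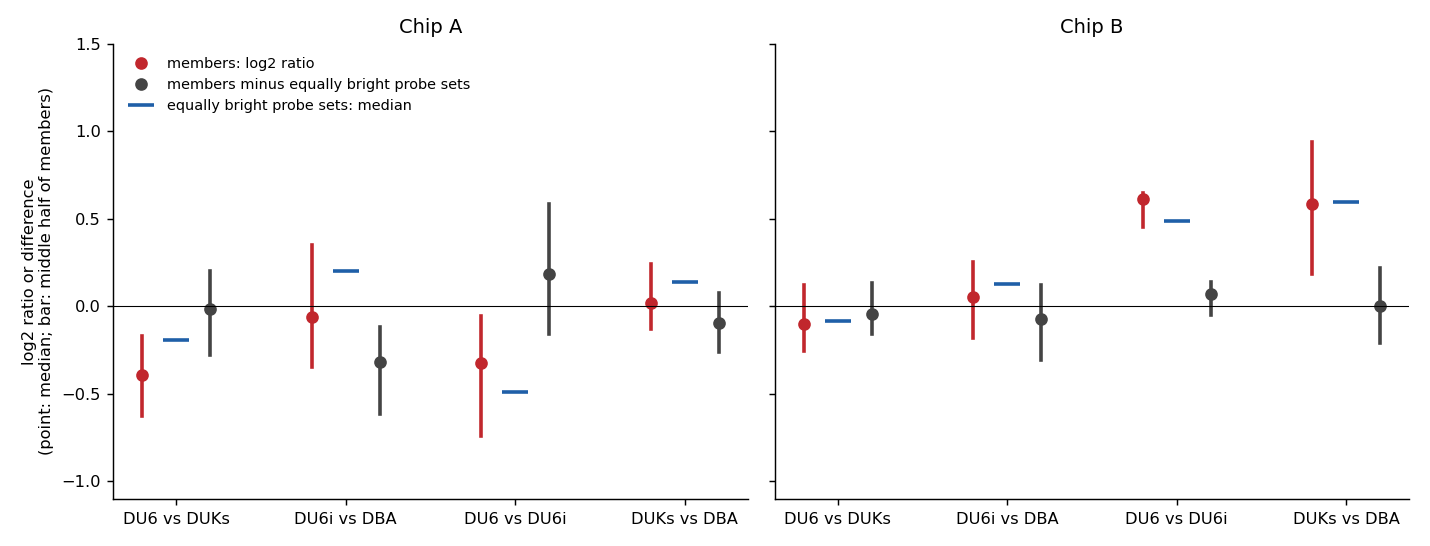
Median log2 ratio of the members (red) with the middle part between their quartiles, median of equally bright probe sets (blue), and median difference between the members and those (grey), per pair and chip. The red medians span -0.39 to 0.61, and the grey ones -0.32 to 0.18.

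Rpl41, a very small basic protein of the large subunit, departed furthest from the common pattern. Its chip A signals were 5063 in DU6, 51314 in DU6i, 15018 in DUKs and 11142 in DBA. DU6i alone was high and DU6 alone low, with DUKs and DBA close together. Among all chip A probe sets Rpl41 ranked 1165 in DU6, 3 in DU6i, 271 in DUKs and 423 in DBA. The log2 ratio was -1.57 in DU6 against DUKs (2.97-fold lower), 2.20 in DU6i against DBA (4.61-fold higher) and -3.34 in DU6 against DU6i (10.1-fold lower). Relative to equally bright probe sets the differences were -1.54, 2.01 and -3.15 in these pairs. Over the alternative settings the DU6 against DU6i ratio ranged from -3.50 to -2.94 and the DU6i against DBA ratio from 1.69 to 2.31. Only 1 member probe set names Rpl41, so no second one bears on it.

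Rps26, a small-subunit protein beside the mRNA exit, went the other way. It had 8096 in DU6, 2753 in DU6i, 5181 in DUKs and 7910.3 in DBA. DU6i was the low line, and DU6 and DBA were alike. The log2 ratio was -1.52 in DU6i against DBA (2.87-fold lower), 1.56 in DU6 against DU6i (2.94-fold higher) and 0.64 in DU6 against DUKs. The differences from equally bright probe sets were -1.41, 1.34 and 0.38. The ratio in DU6i against DBA ranged from -1.52 to -1.24 over the settings.

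Other members lay low in DU6i beside their neighbours. Rpl12, which forms the base of the stalk with Rplp0, had 19733 in DU6, 14549 in DU6i, 21912 in DUKs and 23944 in DBA. Its log2 ratio in DU6i against DBA was -0.72, and the difference from equally bright probe sets was -1.06. Rpl39, a small protein lining the exit tunnel of the large subunit, had 19778 in DU6, 19157 in DU6i, 24173 in DUKs and 23998 in DBA, with a difference of -0.82 in the same pair. Rpl22l1, the paralogue of Rpl22, had 9477 in DU6, 5615 in DU6i, 6849 in DUKs and 9594 in DBA, with a ratio of -0.77 and a difference of -0.78. Signals of Rpl22 itself were nearly level across the lines, at 14551 in DU6, 15992 in DU6i, 15957 in DUKs and 17127 in DBA. In DU6 against DU6i these 3 lay above their neighbours, by 1.01 for Rpl12, 0.81 for Rpl39 and 0.68 for Rpl22l1. Those pairs share the DU6i array.

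Rpl13a was the dimmest member read on all 4 chip A arrays, with 3561 in DU6, 2299 in DU6i, 1500.1 in DUKs and 2996 in DBA. It was 2.37-fold higher in DU6 than in DUKs, a log2 ratio of 1.25, and lay 0.99 above equally bright probe sets. In DU6i against DBA the ratio was -0.38. DUKs was the low line, and its ratio to DBA ranged from -1.04 to -0.55 over the settings.

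The stalk of the large subunit, a flexible arm of Rplp0 with Rplp1 and Rplp2 that recruits translation factors, was read by 5 probe sets of Rplp0 and Rplp2. No member probe set named Rplp1. Rplp0 on chip A had 13591 in DU6, 35246 in DU6i, 27651 in DUKs and 19107 in DBA. On chip B its probe sets, made from the same sequence record, had 52194 in DU6, 34302 in DU6i, 67652 in DUKs and 26975 in DBA for one and 52443 in DU6, 33901 in DU6i, 65842 in DUKs and 27433 in DBA for the other. The line order differed between the chips, with DU6i highest on chip A and DUKs highest on chip B.

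In DU6 against DU6i the Rplp0 log2 ratio was -1.37 on chip A and 0.61 and 0.63 on chip B, so that 1 mRNA had opposite signs on the chips. Relative to equally bright probe sets the chips came closer, at -0.53 on chip A and 0.04 and 0.07 on chip B. In DU6 against DUKs all 3 lay below their neighbours, at -0.49 on chip A and -0.29 and -0.24 on chip B, and in DU6i against DBA all 3 lay above, at 0.32 on chip A and 0.21 and 0.17 on chip B. Rplp2 on chip A had 17555 in DU6, 34005 in DU6i, 26479 in DUKs and 24392 in DBA in one probe set and 11117 in DU6, 24139 in DU6i, 18252 in DUKs and 14880.0 in DBA in the other. Their ratios were alike, -0.59 and -0.72 in DU6 against DUKs and 0.48 and 0.70 in DU6i against DBA. Beside equally bright probe sets the first probe set lay at 0.04 and -0.17 in these pairs, and the second at -0.57 and 0.50.

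Rps18, Rps15 and Rps19, small-subunit proteins, followed the brightness of their chip closely. Rps18 had 18421 in DU6, 39267 in DU6i, 33389.5 in DUKs and 23444 in DBA. Rps15 had 14301 in DU6, 31370.5 in DU6i, 24964 in DUKs and 20332 in DBA. Rps19, the gene mutated in some forms of Diamond-Blackfan anaemia in humans, had 16364 in DU6, 26819 in DU6i, 22457 in DUKs and 21018 in DBA. All 3 were lowest in DU6 and highest in DU6i. Their log2 ratios in DU6 against DU6i were -1.09, -1.13 and -0.71, but the differences from equally bright probe sets were -0.13, -0.34 and 0.04, within the technical SD of 0.47.

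Of the member genes 10 had several probe sets, and 4 were on both chips. Rpl36, a large-subunit protein, had 13544 in DU6, 14435 in DU6i, 16782 in DUKs and 19110.0 in DBA on chip A and 27425 in DU6, 20056 in DU6i, 25616 in DUKs and 27226 in DBA on chip B. Its differences from equally bright probe sets agreed between the chips within 0.13 in each of the 4 pairs, while the ratios themselves differed by up to 0.54. Rpl27a, another large-subunit protein, had chip B probe sets whose ratios differed by 0.05 to 0.15. Rpl28 on chip B did not repeat. One of its probe sets had 55738 in DU6, 40029.6 in DU6i, 30958 in DUKs and 45371 in DBA, and the other had 44334 in DU6, 28789 in DU6i, 37512 in DUKs and 32918 in DBA. Their ratios in DUKs against DBA were -0.55 and 0.19, and in DU6 against DUKs 0.85 and 0.24, although both derive from the same sequence record. Rpl6 had 49486 in DU6, 30117 in DU6i, 51413 in DUKs and 23229 in DBA in one and 45597 in DU6, 29507 in DU6i, 41298 in DUKs and 32089 in DBA in the other, and the ratios in DUKs against DBA were 1.15 and 0.36. Gaps between probe sets of 1 sequence record reached 0.78 in these pairs.

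Rpl3, which reaches towards the peptidyl transferase centre, stood apart on chip B, with 58519.9 in DU6, 35502 in DU6i, 47009.6 in DUKs and 47205 in DBA. In DBA it was the brightest probe set of the chip. The differences from equally bright probe sets were 0.41 in DU6 against DUKs, -0.54 in DU6i against DBA and -0.77 in DUKs against DBA. Rpl5, which carries the 5S rRNA, was dim, at 1092 in DU6, 3281 in DU6i, 2900.0 in DUKs and 1320.1 in DBA, and passed the floor in DU6i and DUKs only.

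The remaining chip A members read on all 4 arrays had ranges of 0.19 to 0.81 on the log2 scale from the lowest to the highest line. Rpl23a, a protein at the mouth of the exit tunnel, had 17615 in DU6, 20058 in DU6i, 20004 in DUKs and 19873 in DBA, the smallest range of these. Rps4x, the X-linked small-subunit protein, had 18378 in DU6, 20609.6 in DU6i, 23270.4 in DUKs and 22869 in DBA, and Rps15a had 13715 in DU6, 15712 in DU6i, 16734 in DUKs and 17289 in DBA. Ranges over the lines were 0.29 for Rpl7, 0.40 for Rps28, 0.41 for Rpl19 and 0.48 for Rpl23. Rpl29 and Rpl32l, both of large-subunit name, had ranges of 0.72 each. Rpl32l was lowest in DU6, with 10191 in DU6, 16750.4 in DU6i, 15273 in DUKs and 13703 in DBA, and lay at -0.59 beside equally bright probe sets in DU6 against DUKs. Rpl29 had 11791 in DU6, 17958 in DU6i, 14454 in DUKs and 19445 in DBA, highest in DBA. Rpl8, which lies by the peptidyl transferase centre, had 14005 in DU6, 22445 in DU6i, 23682 in DUKs and 20508 in DBA, lowest in DU6 as were most chip A members. Rpl7a, another large-subunit protein, had 13079 in DU6, 22947 in DU6i, 17066 in DUKs and 16245 in DBA, the widest range of these.

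Rpl39l, the paralogue of Rpl39 used mainly in male germ cells of the mouse, had 435.9 in DU6, 156.0 in DU6i, 4682 in DUKs and 1299 in DBA on chip A. It passed the floor in DUKs and DBA and not in the DU6 lines. Its level was lower in DU6 than in DUKs by at least 4.58-fold and lower in DU6i than in DBA by at least 1.27-fold. DUKs was 3.60-fold higher than DBA. Germ cell genes stood in nearly the same order. Prm1, a protamine that packs sperm DNA, had 8576 in DU6, 8740.1 in DU6i, 28545 in DUKs and 19113 in DBA. Ldhc, the sperm lactate dehydrogenase, had 3450.4 in DU6, 2604 in DU6i, 23076 in DUKs and 10134 in DBA. All 8 measured germ cell genes were lower in DU6 than in DUKs (median log2 ratio -2.22), all 8 lower in DU6i than in DBA (-1.08), and all 8 higher in DUKs than in DBA (1.21). Their summed signal was 56255 in DU6, 44921 in DU6i, 253885 in DUKs and 107609 in DBA. The part of germ cell RNA in the Rpl39l signal was not tested. Rps27l, the paralogue of Rps27 induced by p53, passed the floor only in DUKs, at 1595 in 1 of its probe sets. Rpl34, a large-subunit protein, passed it only in DBA, at 1832. Rps3 on chip A passed it only in DU6, at 1227.

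**Figure D4:**
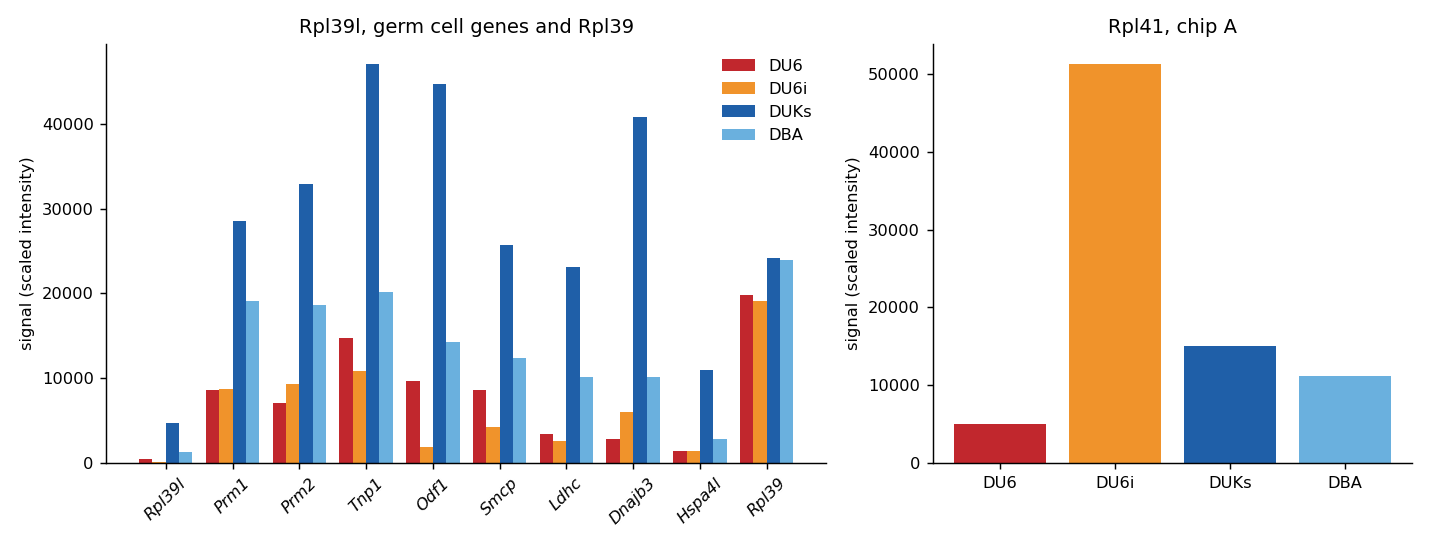
Signal (scaled intensity, linear axis from 0) in the 4 lines of Rpl39l, 8 germ cell genes and Rpl39 (left), and of Rpl41 (right). Rpl39l and each germ cell gene are highest in DUKs with DBA next, Rpl39 is nearly level, and Rpl41 is highest in DU6i at 51314.

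Across the sides, DU6 and DU6i together were compared with DUKs and DBA by limma over the 5267 probe sets that passed the floor on 2 or more arrays. None of the 43 members tested passed an adjusted p of 0.05 (Benjamini-Hochberg), and none of the 5267 did (0%). At an unadjusted p under 0.05 limma called 252 of all (4.78%) and 0 members. The lines are the replicates here, 2 a side, and DU6i derives from DU6, so they are not independent. The smallest adjusted p among members was 0.9998 in limma.

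Members with the smallest limma p were Rpl39l (log2 difference -1.27, SE 0.59), Rpl12 (-0.43, SE 0.29), Rpl36 (-0.36, SE 0.27), Rpl39 (-0.31, SE 0.26) and Rpl13a (0.43, SE 0.43). Rpl39l was tested only because it passed the floor in DUKs and DBA, and both DU6 lines were set to the floor, so its sign follows from the filter. Of the 43, 33 (76.7%) were lower and 10 higher in the DU6 lines, with a median of -0.09, and of all tested 50.6% were lower, with a median of -0.01. In 9 members (20.9%) both DU6 lines lay below both other lines, against 13.3% of all tested, and in 0 both lay above, against 16.8% of all. Among probe sets read on all 4 arrays, which leaves out Rpl39l, these were 8 of 41 members (19.5%), against 11.9% of all 3974, and 0 members above, against 18.8%. The 9 were Rpl39l, Rpl12, Rpl36, Rpl39, Rps28, Rps4x, Rps15a and Rpl19 on chip A and Rps24 on chip B.

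The markers of the tissue shared the order of the chip A members in some pairs and not in others. Adipocyte genes were bright, with summed signals over 10 genes of 161228 in DU6, 345233 in DU6i, 244248 in DUKs and 185463 in DBA. Adipoq, the gene of adiponectin, had 21044 in DU6, 48251 in DU6i, 36670.3 in DUKs and 28894 in DBA. In DU6 against DU6i 9 of 10 adipocyte genes were lower (median -1.19), beside 21 of 28 chip A members, and in DU6 against DUKs 8 of 10 were (-0.76), beside 25 of 30. In DU6i against DBA all 10 adipocyte genes were higher (0.93), while 16 of 29 chip A members were below 0, and in DUKs against DBA all 10 were higher (0.37), beside a members' median of 0.02. Relative to equally bright probe sets the lists took opposite sides in both pairs with DU6i. In DU6 against DU6i all 10 adipocyte genes lay below (-0.61) and 18 of 28 chip A members above (0.18). In DU6i against DBA all 10 lay above (0.37) and 22 of 29 chip A members below (-0.32). Both pairs share the DU6i arrays, so they are not separate observations. The adipocyte list draws on both chips, and the chip B members' median differences were 0.07 and -0.07. Adipocyte genes also belong to the pool from which the members' equally bright probe sets are taken. Macrophage genes summed to 103059, 113849, 80545 and 69008.0 in DU6, DU6i, DUKs and DBA. Epididymis and male tract genes summed to 69647, 8108, 102915 and 149625 in the same lines. Among them Svs4 (42807) and Svs5 (43837) passed the floor only in DBA, and Sbp (21028) only in DUKs. In DU6, DU6i, DUKs and DBA lymphocyte genes summed to 53239, 33356, 32063 and 30972. Of these sums Ighm alone gave 47733, 28829, 24835 and 23597, and 4 of the 8 genes were under the floor on all arrays. Ms4a1 was highest in DUKs (6080), and Cd3e passed the floor only in DU6i (1925). Endothelial genes summed to 43064, 49682, 36148 and 37932, and erythroid genes to 69855, 33299, 80825 and 31268. The 2 erythroid genes differed, with Hba-a1 highest in DUKs (73732) and Alas2 lowest there (7093.5). The second middle probe set of pyruvate carboxylase, an array control read at several points of its mRNA, as a percentage of its 3′ end, was 15.3% in DU6, 54.5% in DU6i, 53.9% in DUKs and 19.5% in DBA on chip A, and 12.7%, 45.3%, 55.6% and 14.3% on chip B. The 5′ end of actin as a percentage of its 3′ end was 47.2% in DU6, 40.6% in DU6i, 58.0% in DUKs and 43.0% in DBA on chip A, and 36.3%, 58.1%, 60.2% and 52.7% on chip B. For Gapdh it was 111.1% in DU6, 97.0% in DU6i, 84.7% in DUKs and 82.1% in DBA on chip A, and 69.3%, 110.9%, 71.1% and 115.9% on chip B. Pyruvate carboxylase was lower in DU6 and DBA than in DU6i and DUKs at each point read, on both chips. Its 5′ end stood at 1.08%, 11.7%, 14.2% and 1.46% of the 3′ end in DU6, DU6i, DUKs and DBA on chip A. On chip B it stood at 2.31%, 12.4%, 14.8% and 1.15%. The 5′ end of actin split the lines so on chip B only, and that of Gapdh on neither chip. Every pair compared crosses this split, so it cannot be told apart from a difference between the lines. The part of each of these lists and controls in the members' ratios was not tested.

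Other genes of translation did not share the members' medians in all pairs. These lists hold genes of known role, and were compared by counts and medians only. Elongation factors, which deliver tRNA and move the ribosome, had a median log2 ratio of 0.25 in DU6 against DUKs and -0.08 in DU6i against DBA over 5 genes. Eef1a1, the factor that brings aminoacyl-tRNA, had 66258 in DU6, 37758 in DU6i, 32577 in DUKs and 29205 in DBA on chip B, and was the only 2-fold one (1.02 in DU6 against DUKs). Eef2, the translocase, had 32676 in DU6, 27062 in DU6i, 37133 in DUKs and 28624 in DBA. Other ribosome parts and products of terminal oligopyrimidine mRNAs had -0.16 and 0.04 over 8 genes. Fau, whose product includes a small-subunit protein, had 12134 in DU6, 19914 in DU6i, 18491 in DUKs and 17311 in DBA, and thus was lowest in DU6 as were most chip A members. Rpsa, a small-subunit protein outside the naming rule, had 20706 in DU6, 20609 in DU6i, 20663 in DUKs and 25996 in DBA. Tpt1, another such mRNA, had 61715 in DU6, 46902 in DU6i, 65591 in DUKs and 43707 in DBA on chip B. It was high in DU6 and DUKs, as were most chip B members read on all 4 arrays. Rpl3, Rpl36, Rps24 and 1 probe set of Rpl28 were not split so. Pabpc1, the poly(A) binding protein, had 29643 in DU6, 37522 in DU6i, 53961 in DUKs and 33449.9 in DBA.

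Initiation factors, which load the small subunit on the mRNA, had medians of 0.10 in DU6 against DUKs and -0.15 in DU6i against DBA. These were over 17 of 23 genes, with none at 2-fold. The list was drawn by symbol and also counts Eif4ebp2 and Eif4ebp1, which is named among the regulators below. Genes of ribosome making in the nucleolus had -0.07 over 15 genes and -0.17 over 13. Of the regulators, Larp1, which binds the oligopyrimidine tract, had 11093 in DU6, 9964 in DU6i, 13435 in DUKs and 13535 in DBA. Eif4ebp1, the translation repressor that mTOR phosphorylates, had 14859 in DU6, 22809 in DU6i, 16254 in DUKs and 17616 in DBA. Myc and Mycn, known drivers of ribosome production, and Tsc1 were under the floor on all arrays. All probe sets of both chips together had medians of 0.05 and -0.03 in these pairs.

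Mitochondrial ribosomal proteins, which build the separate ribosome of the mitochondrion, had a positive median in DU6 against DUKs, where the cytosolic ones on chip A had a negative one. Their median there was 0.42 over 24 genes, 21 of them above 0, against 54.1% of all probe sets. At least 2-fold higher were 3, Mrps12, Mrpl18 and Mrpl49, against 3.31% of all on chip A and 4.99% on chip B. Mrps12 was under the floor in DUKs, so its ratio is a bound, and Mrpl49 in DUKs lay near the floor of 1023. Relative to equally bright probe sets the median difference was 0.26, beside -0.01 for the cytosolic members of chip A. Mrpl49 of the large mitochondrial subunit had 2507 in DU6, 1102 in DU6i, 1096 in DUKs and 1518 in DBA. Mrpl18, of the same subunit, had 5275 in DU6, 3186 in DU6i, 2229 in DUKs and 3679 in DBA. In DU6i against DBA the median was -0.21 over 27 genes, 18 of them below 0, against 52.5% of all probe sets. In DUKs against DBA it was -0.20 over 26, 22 of them below 0, against 50.4% of all. The median differences from equally bright probe sets were -0.06 and -0.22 in these pairs. The difference between the lists was not tested.

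**Figure D5:**
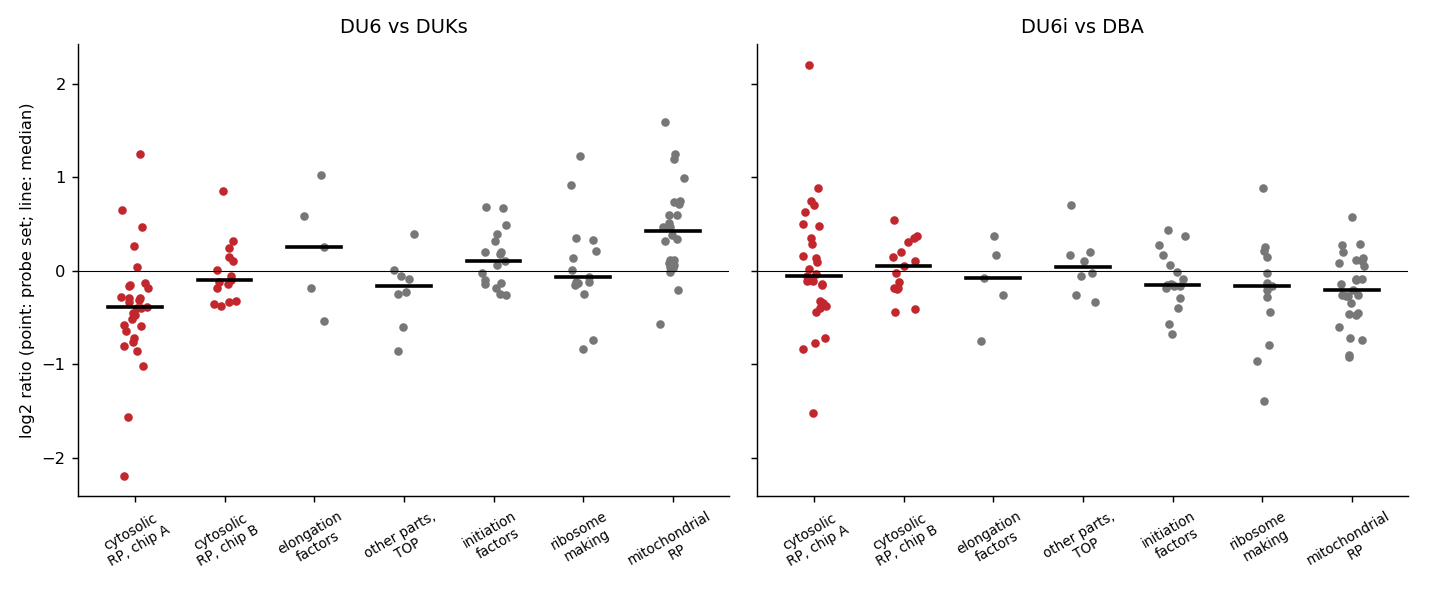
Log2 ratio of each probe set (points) and median (line) for cytosolic ribosomal proteins (RP, red, per chip) and 5 other lists of translation genes (grey), in DU6 vs DUKs and DU6i vs DBA. The mitochondrial list has the highest median in DU6 vs DUKs (0.42) and the lowest in DU6i vs DBA (-0.21).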

How the data were processed

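RNA of 1 pool of 20 males per line was measured on 1 chip A and 1 chip B array. Per the labels, the authors took the intensity per probe set from Microarray Suite 4.0.1 with Data Mining Tool 1.2, and brought the arrays to one overall signal. The intensity is deposited on a linear scale, with 12.8% to 30.5% of an array's values below 0. Whether it is an average difference between matched and mismatched probes is not given in the sources used here. Precision is limited by the number of arrays.

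Signals no higher than a chip's floor were raised to it, and log2 was taken afterwards. Where 1 signal of a ratio was so raised, the ratio is a bound. Symbols came from the platform annotation supplied with the files, updated through a table of mouse genes. The equally bright probe sets were the 100 nearest in mean log2 signal on the same chip, members and control probe sets left out. Their median ratio was subtracted from a member's. The 24 probe sets with several symbols were not left out of this pool. The technical SD comes from genes that had several measured probe sets. The sides were compared with limma 3.58.1 (lmFit and eBayes, R 4.3.3), with 1 fit per chip and Benjamini-Hochberg adjustment across the chips. With 2 lines a side the smallest p of an exact permutation test is 1 in 3. Other steps used Python 3.11.15, numpy 2.4.6 and pandas 2.3.3. The limma and brightness steps were tested on simulated data.

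Named members were Rpl41, the stalk proteins, genes named as paralogues, the 5 brightest and dimmest per chip, the 3 furthest from equally bright probe sets in each direction, pair and chip, those at 2-fold, those with several probe sets and the 5 with the smallest limma p. Members and lists were chosen with earlier results of these data known. The alternatives were quantile normalization, rescaling, other floors, another log scale, other neighbours, filters and leaving out each line.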

Additional observations from a re-analysis of the deposited data

Results flagged for a closer look

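In 10 of 43 member probe sets compared, the ratio of DU6 to DUKs and the ratio of DU6i to DBA had opposite signs, and each was larger than the technical SD of its pair. That is 23.3% of the members, and 832 of all 5085 probe sets measured in both pairs (16.4%) met the same rule. The difference between the pairs (DU6 against DUKs minus DU6i against DBA, log2) was not tested, since each line has 1 pool. It was -3.77 for Rpl41 (-1.57 and 2.20), -1.91 for Rplp0 on chip A (-1.02 and 0.88), -1.60 for Rps18 (-0.86 and 0.74) and -1.43 for Rps15 (-0.80 and 0.63). It was -1.41 and -1.07 for the Rplp2 probe sets (-0.72 and 0.70, -0.59 and 0.48) and -0.81 for Rps19 (-0.46 and 0.35). In the other direction it was 2.17 for Rps26 (0.64 and -1.52), 1.63 for Rpl13a (1.25 and -0.38) and 1.24 for Rpl22l1 (0.47 and -0.77). The 10 were picked for opposite signs, so their signs beside equally bright probe sets add no support. There 9 of the 10 had opposite signs, counted without the SD rule and with no share of all probe sets beside it. Only Rpl41 and the Rplp2 probe set with the larger gap between the pairs exceeded both technical SDs there (0.44 and 0.34). The differences from equally bright probe sets, in DU6 against DUKs and in DU6i against DBA, were -1.54 and 2.01 for Rpl41 and 0.38 and -1.41 for Rps26. They were 0.99 and -0.31 for Rpl13a and 0.24 and -0.78 for Rpl22l1. They were -0.49 and 0.32 for Rplp0, -0.57 and 0.50 for the Rplp2 probe set with the larger gap, -0.30 and 0.10 for Rps15 and -0.19 and 0.09 for Rps18. The other Rplp2 probe set had its signs turned, at 0.04 and -0.17, and Rps19 had one sign, at -0.02 and -0.12.

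Of the 24 probe sets with several symbols, 1 of which followed the rule, 22 were above the floor on all 4 arrays of their chip. They were not counted as members, but stayed among all other probe sets, from which the equally bright ones were taken. The differences from equally bright probe sets thus set the members partly beside these. Counting them as members also took them out of that pool. On chip A the median difference was then -0.39 in DU6i against DBA, where it was -0.32, and 0.25 in DU6 against DU6i, where it was 0.18. Their median mean signal was 21931 on chip A and 39039 on chip B, in the range of the members.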

How the results depend on the processing

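Quantile normalization, which gives the arrays of a chip one distribution, changed most. The members' median log2 ratio turned to 0.16 in DU6 against DU6i on chip A, where it was -0.32 as scaled by the authors. On chip B it came to 0.12 in DU6 against DU6i, where it was 0.61, and to 0.080 in DUKs against DBA, where it was 0.58. By construction this setting removes differences in the brightest signals between arrays, whatever their origin, and the cause of the changes was not tested. It moved 56 of 177 single ratios of members by more than the technical SD of a single ratio, against 10 with the floor halved, 4 of 166 with it doubled, 2 on the scale log2(signal + floor) and 0 when arrays were rescaled. Over the settings run, the median difference from equally bright probe sets in DU6 against DUKs ranged from -0.07 to 0.02 on chip A and from -0.10 to 0.00 on chip B, so that its sign turned on both. It ranged from -0.39 to -0.30 and from -0.11 to -0.03 in DU6i against DBA, from 0.17 to 0.25 and from -0.01 to 0.14 in DU6 against DU6i, and from -0.13 to -0.05 and from -0.01 to 0.26 in DUKs against DBA, chip A first. The 0.26 came with 200 neighbours in place of 100, where it was 0.00. Adding the 24 probe sets with several symbols, chosen after seeing the data, gave a median of 0.09 in DU6i against DBA on chip A, where it was -0.06. No member passed an adjusted p of 0.05 in limma under any setting, and the count was 0 to 0 over the fits that left out each line in turn. At an unadjusted p under 0.05 the count of members was 0 or 1. Without a filter on low signals, limma called 4 of 13069 probe sets, none of them a member. The alternative without family or shared probe sets gave no value, because no member with a plain name was above the floor. A limma fit with the pairs of the series title as a block (DU6 with DUKs, DU6i with DBA), added after seeing the data, called 0 of 5267 probe sets at an adjusted p of 0.05 and 180 at an unadjusted p under 0.05, no member in either count, with 1 residual degree of freedom per chip before moderation. With 1 array per line and chip, each ratio of a member rests on 1 signal a side.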
